A study of Bos taurus with 16 samples.

Results

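The insulin-like growth factor (IGF) system was followed in blood leukocytes and endometrium of the same dairy cows. Its 10 genes were the ligands IGF1 and IGF2, the receptors IGF1R and IGF2R, and the binding proteins IGFBP1, IGFBP2, IGFBP3, IGFBP4, IGFBP5 and IGFBP6. Every array probe that carried one of these symbols and was not a control spot was taken, which gave 37 of 46615 probes and 10 of 26738 gene names. Multiparous Holstein-Friesian cows were sampled at 45 to 55 days postpartum, 4 of which (cows 841, 850, 877 and 883) were healthy. The other 4 (cows 718, 833, 836 and 846) had subclinical endometritis, or SCE. SCE is an inflammation of the uterine lining without clinical signs, and was diagnosed by histology. Each cow gave circulating white blood cells (WBC), lysed whole from blood tubes that fix RNA, and an endometrial biopsy from the base of the uterine horn on the side of the corpus luteum. SCE cows were mostly in the luteal phase of the estrous cycle and healthy cows were split between phases, but the phase was not matched to single cows here, so phase and disease cannot be told apart.

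IGF1 and IGF2 are small peptides related to insulin that drive cell growth, survival and metabolism. Both signal through IGF1R, a receptor tyrosine kinase, whereas IGF2R, which also carries mannose 6-phosphate proteins to lysosomes, takes IGF2 up and clears it. The IGFBPs hold most IGF in blood and tissue, which prolongs its life and sets how much reaches the receptors. In the uterus IGF1 and IGF2 are mainly made by stromal cells under the influence of ovarian steroids, and in postpartum cows circulating IGF1 follows energy balance.

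Each probe is a 60-base DNA, named below by the first base it covers in the transcript it was designed on. That transcript was not the same for all probes of a gene. The brightest IGF1 probe and the IGF2 probe at base 477 cover the same stretch of the related hormones, the end of the mature peptide known as the A domain, and are shown because they show how far the ligands can be told apart. Capitals mark the bases shared when both are aligned without gaps, 41 of 53 aligned bases or 77.4%.
IGF1 base 468, chr5:71141739-71141798, minus strand: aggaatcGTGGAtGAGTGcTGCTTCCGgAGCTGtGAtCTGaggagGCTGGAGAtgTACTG
IGF2 base 477, chr29:51272922-51272981, plus strand: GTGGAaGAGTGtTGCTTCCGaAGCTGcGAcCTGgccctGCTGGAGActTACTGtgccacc
The binding proteins have a cysteine-rich region in common near the end of the protein, and probes of IGFBP6 and IGFBP1 cover the same part of it. They share 33 of 60 bases, or 55%, again in capitals.
IGFBP6 base 595, chr5:29836468-29837294, minus strand: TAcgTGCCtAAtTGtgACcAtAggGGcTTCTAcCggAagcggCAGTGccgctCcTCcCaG
IGFBP1 base 724: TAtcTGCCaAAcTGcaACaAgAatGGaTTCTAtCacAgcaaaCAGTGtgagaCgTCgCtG
Coordinates are those of the probe annotation in the files, on build HGSC Btau 3.1. The IGFBP6 probe runs over 827 bases of genome, more than its own length, as do 5 other probes of the set, and the 2 IGFBP1 probes were not placed on a chromosome.

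Spot brightness was compared as log2 normalized intensity, so a difference of 1 is a doubling of signal. Levels of different probes cannot be set against each other, and only differences between samples are compared. On the 16 arrays, 64.7% to 79.9% of spots lay well above background by the scanner software's own mark. Each tissue was hybridized on a slide of its own, and a difference between tissues cannot be told apart from one between slides. By the leukocyte and stromal marker means the cells matched their labels. The mean of 8 leukocyte markers was 12.77 to 13.22 in WBC and 7.67 to 8.88 in endometrium. That of 7 stromal markers was 12.23 to 13.78 in endometrium and 8.65 to 8.97 in WBC. WBC arrays also carried platelet and red cell signal. The mean of 3 platelet markers was 11.04 to 11.99 in WBC and 6.66 to 7.13 in endometrium. For 3 red cell markers it was 12.23 to 14.90 in WBC and 8.67 to 9.55 in endometrium. The part of these cells in the WBC values was not tested. Single markers did not all follow. Of the stromal markers 5 were higher in endometrium and 1, DCN, in WBC (12.85 to 13.14 against 12.21 to 12.86). Of 5 epithelial markers 3 were higher in endometrium and 2, KRT8 and KRT19, in WBC. The endometrium array of SCE cow 833 stood apart. Its median correlation with the other endometrium arrays was 0.94, against 0.973 to 0.979 for the others. It had the lowest median signal over background of the endometrium arrays, 79 against 248 to 316, and the lowest share of spots above background, 64.7%. The WBC array of cow 833 was also the least like its tissue, with a median correlation of 0.972. This cow's deviations from its group means correlated at r = -0.24 between tissues. Its endometrium array had the highest mean of 4 endothelial markers, 13.10 against at most 11.07 in the others, and the lowest stromal mean, 12.23 against 12.71 to 13.78. Both tissues were measured in bulk, so a lower signal may come from fewer cells of a type or from less RNA per cell, and these cannot be told apart.

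The first comparison asked where in the cow the IGF genes are expressed. Both ligands and the binding proteins IGFBP3, IGFBP5 and IGFBP6 were higher in endometrium than in WBC by their brightest probe, as was IGF2R by a smaller difference. IGF1R, IGFBP1, IGFBP2 and IGFBP4 were not called by their brightest probe. Of the 37 probes, 26 were called higher in endometrium, 2 were called higher in WBC and 9 were not called. Over all 46594 probes tested, 53.9% were called, 22.7% higher in endometrium and 31.2% higher in WBC. At an unadjusted p of 0.05 the same test passed 28 of the 37 probes and 56.9% of all probes. A call means an adjusted p at or below 0.05 in limma's TREAT test, which asks whether a change exceeds 1.2-fold. In 25 of the 37 probes no WBC array reached the level of any endometrium array or the reverse, against 37% of all probes. Of the 10 genes 8 had at least 1 probe called higher in endometrium, and IGF1R and IGFBP1 had none. These genes had 2 to 13 probes each, and the matching share of all genes was not counted. Taking the brightest probe of each gene, 6 of 10 were called higher and 0 lower, also with an unadjusted p, and the median difference was 1.44 against -0.16 over all probes. For the brightest probe of all genes, 55.3% were called, 23.8% higher in endometrium and 31.5% lower, and 58.3% passed unadjusted. The same 26 probes were called higher under each of the 4 other normalizations, with the cow as a block, and after leaving out any cow. One of these, the normalization of each tissue on its own, called 31 higher and 0 lower. It also called 19223 of all probes higher and 5054 lower, so that 79.2% of all calls were higher against 42.0% by the main setting, and moved the median of all probes from -0.16 to 0.35.

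**Figure D1:**
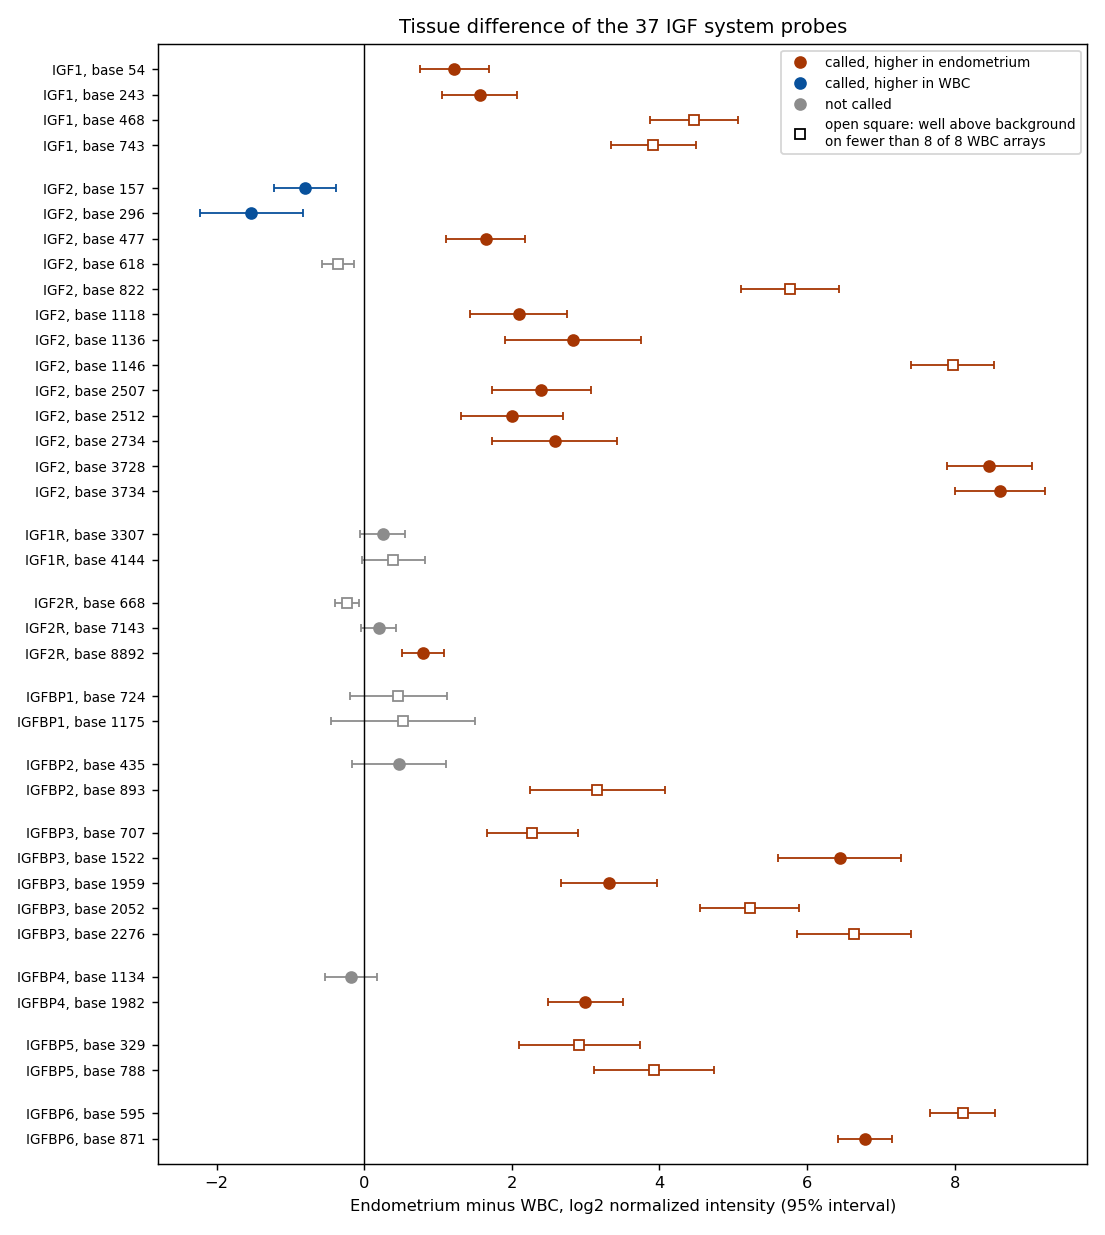
Endometrium minus WBC in log2 normalized intensity for the 37 probes, grouped by gene, with 95% intervals from the model of 16 arrays. Brown points were called higher in endometrium, blue points higher in WBC and grey points were not called, and open squares mark probes well above background on fewer than 8 WBC arrays. Where no WBC array was above background, only a lower bound of the difference holds. Among probes well above background on all WBC arrays, differences reach 8.61 for IGF2, 6.79 for IGFBP6 and 6.44 for IGFBP3. All probes of IGF1R, IGF2R and IGFBP1, also those near background, lie between -0.23 and 0.79.

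IGF1, the main mediator of growth hormone action, was higher in endometrium with all 4 probes. Values below are always listed in the order of healthy cows 841, 850, 877 and 883, then SCE cows 718, 833, 836 and 846. In endometrium the brightest probe read 10.47, 11.34, 12.53 and 11.52 in healthy cows and 9.91, 10.41, 10.91 and 11.96 in SCE cows. In WBC it read 6.66, 6.64, 6.87 and 6.67, then 6.68, 6.67, 6.41 and 6.75, with 6 of the 8 arrays well above background. The tissues did not overlap, and the difference was 4.46 (SE 0.28, limma adjusted p = 1.875e-09), or 22.1-fold, seen in 8 of 8 cows. The probe at base 743 did not rise well above background in WBC and was at least 13.9-fold higher in endometrium on average. Such bounds concern the background only and leave out the spread between cows. The other IGF1 probes, at bases 54 and 243, gave smaller differences of 1.22 (SE 0.22) and 1.57 (SE 0.24). Within endometrium IGF1 varied 6.14-fold between cows, and cows 877 and 846, highest for IGF1, also had the highest stromal marker means, 13.78 and 13.72. The part of stromal cell number in the IGF1 level was not tested.

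IGF2, the growth factor that dominates in fetal and reproductive tissue, had 13 probes, of which 10 were called higher in endometrium and 2 lower. The probes nearest the end of its transcript, at bases 3728 and 3734, differed most. At base 3728 endometrium read 15.99, 17.02, 16.70 and 16.14, then 15.74, 17.94, 16.64 and 16.13. WBC read 8.10, 8.71, 8.15 and 8.42, then 8.44, 7.53, 7.5 and 7.70, which leaves a wide gap between the tissues. The difference was 8.47 (SE 0.27, adjusted p = 6.058e-13), or 355-fold, and at base 3734 it was 8.61 (SE 0.29), or 391.5-fold. The brightest IGF2 probe on average, at base 1118, differed far less. It read 14.56, 15.48, 15.45 and 14.55, then 13.97, 16.28, 14.73 and 14.64 in endometrium. In WBC it read 13.68, 12.47, 12.72 and 12.83, then 13.19, 11.94, 13.20 and 12.88. The tissues still did not overlap, and the difference was 2.09 (SE 0.31, adjusted p = 5.384e-05), or 4.27-fold.

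Neighbouring IGF2 probes gave different answers about WBC. The probes at bases 1136 (chr29:51273885-51273944) and 1146 (chr29:51273895-51273954) share 50 bases. Only the first holds the 10 bases cagccccctt at its 5′ end, and only the second holds aaacttctta at its 3′ end. In endometrium both were bright, with means of 15.32 and 14.77. In WBC the probe at base 1136 read 13.61, 12.75, 12.25 and 11.44, then 13.12, 10.43, 13.24 and 13.09. The probe at base 1146 read 6.65, 7.47, 6.65 and 7.11, then 7.49, 6.52, 5.97 and 6.56 there, and was well above background on 6 arrays. The shift of 10 bases thus took the tissue difference from 2.83 (SE 0.43) to 7.97 (SE 0.27). The gap between these differences was 5.14 (SD 1.23 over 8 cows), larger at base 1146 in 8 of 8 cows (exact sign-flip test p = 0.0078, the smallest it can give, 0.0104 adjusted over the 4 overlapping pairs compared). For the probes at bases 3728 and 3734, which share 54 bases, the gap was 0.14 (exact sign-flip p = 0.0156), larger at base 3734 in 7 of 8 cows. The probe at base 1118, which stands for IGF2 as its brightest, shares 42 bases with that at base 1136 and 32 with that at base 1146. Its gap to the probe at base 1146 was 5.88 (exact sign-flip p = 0.0078), larger at base 1146 in 8 of 8 cows. Which of these probes follows IGF2 in WBC was not tested.

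The 2 IGF2 probes called lower in endometrium lay at bases 157 and 296. The probes at bases 157 and 618 were each designed on another transcript than the rest. That at base 296 is shown because it ran against the other probes over the coding sequence.
IGF2 base 296, chr29:51271291-51271350, plus strand: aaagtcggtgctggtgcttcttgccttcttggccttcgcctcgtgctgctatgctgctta
At base 296 WBC read 14.05, 13.33, 13.17 and 13.43, then 13.56, 12.70, 13.72 and 13.78. Endometrium read 11.45, 11.59, 12.13 and 11.73, then 11.12, 13.97, 11.98 and 11.54. WBC was thus higher in 7 of 8 cows, the exception being cow 833, whose endometrium overlapped the WBC range. The difference was -1.53 (SE 0.33, adjusted p = 0.00189), but -0.89 and not called (adjusted p = 0.0605) when each tissue was normalized on its own. At base 157 the difference was -0.81 (SE 0.20, adjusted p = 0.0155), and 0.06 with each tissue normalized on its own. That call was also lost without cow 841, 718 or 836, where the difference was -0.71, -0.72 and -0.73 and the adjusted p 0.0566, 0.0571 and 0.0538. The probe at base 618 was not well above background on any of the 16 arrays so it gives no level of IGF2.

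The receptors differed less between tissues. IGF1R, through which both ligands signal, read 7.63 to 8.20 in healthy and 7.37 to 8.36 in SCE endometrium with its brightest probe, against 7.44 to 7.72 and 7.35 to 7.74 in WBC. The groups overlapped, and the difference was 0.25 (SE 0.14, 95% interval -0.05 to 0.55, adjusted p = 0.708). It became 1.08 and was called with each tissue normalized on its own. IGF2R, the receptor that clears IGF2, was modestly higher in endometrium with its brightest probe, at base 8892. Endometrium read 11.73, 11.66, 11.97 and 11.56, then 11.14, 11.11, 11.18 and 11.76. WBC read 10.29, 10.61, 10.66 and 11.01, then 10.52, 11.11, 10.65 and 10.91. The difference was 0.79 (SE 0.13, adjusted p = 0.00153), or 1.73-fold, with cow 833 almost equal in both tissues. The IGF2R probe at base 7143 gave 0.19 (SE 0.11, adjusted p = 0.887) and was not called, and the mean of the IGF2R probes gave 0.25 (adjusted p = 0.739).

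**Figure D2:**
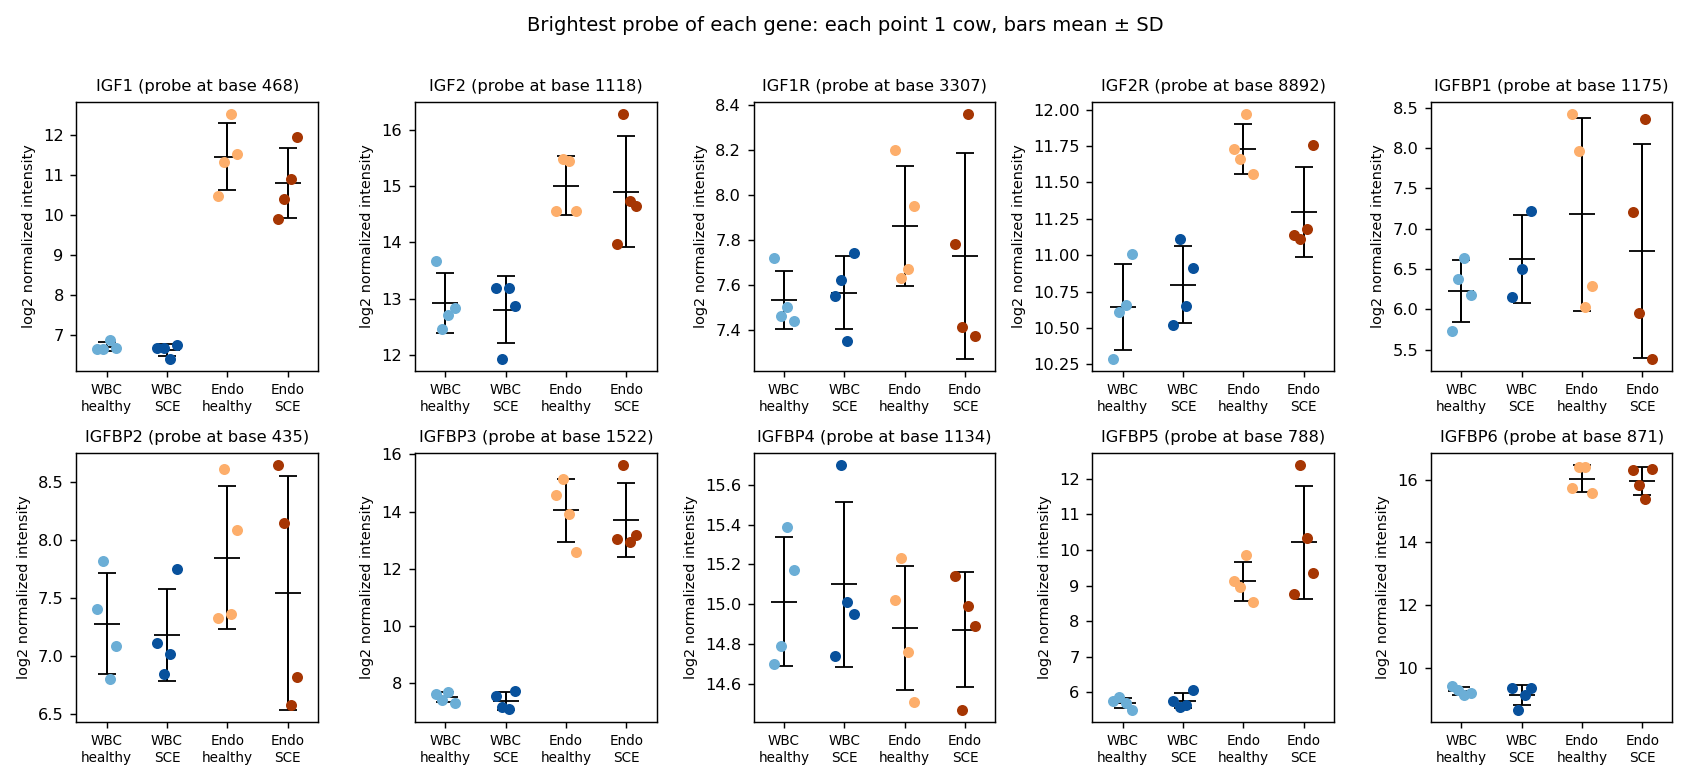
Log2 normalized intensity of the brightest probe of each of the 10 genes in healthy and SCE cows, by tissue. Each point is 1 cow, bars are the mean and SD, and each panel has its own scale. IGF1, IGF2, IGFBP3, IGFBP5 and IGFBP6 separate endometrium from WBC without overlap, and IGF2R does so only barely. Healthy and SCE cows overlap in every panel.

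IGFBP3 and IGFBP6 showed the clearest separation among the binding proteins. IGFBP3 carries most IGF in blood. Its brightest probe read 14.57, 15.15, 13.91 and 12.58, then 13.03, 15.63, 12.93 and 13.18 in endometrium and between 7.07 and 7.71 in WBC. The difference was 6.44 (SE 0.39, adjusted p = 1.071e-09), or 87-fold, in 8 of 8 cows. All 5 IGFBP3 probes were called, and the 3 not well above background in WBC were at least 4.85-fold, 30.7-fold and 99.15-fold higher. IGFBP6, which prefers IGF2 over IGF1, was even and high across endometrium. It read 15.73, 16.41, 16.40 and 15.59, then 16.30, 15.82, 15.37 and 16.33 there and 8.68 to 9.44 in WBC. The difference was 6.79 (SE 0.17, adjusted p = 4.505e-14), or 110.4-fold. The IGFBP6 probe at base 595, shown above, stayed close to background in all WBC samples and was at least 276-fold higher in endometrium. Between cows IGFBP6 varied 2.05-fold in endometrium, against 8.32-fold for IGFBP3.

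IGFBP2 and IGFBP5 are neighbours on chromosome 2, on opposite strands. Both were uneven across endometrium. IGFBP5 binds to extracellular matrix and is found in stroma and muscle. Its brightest probe covers the end of the coding sequence.
IGFBP5 base 788, chr2:108851314-108851373, minus strand: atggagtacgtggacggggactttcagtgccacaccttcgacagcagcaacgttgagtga
It read 9.14, 8.95, 9.85 and 8.55, then 8.77, 12.38, 10.34 and 9.35 in endometrium and stayed close to background in all WBC samples. Endometrium was at least 14.6-fold higher (adjusted p = 3.4e-07). IGFBP2, whose level in blood rises when cows lack energy, had 2 probes that disagreed.
IGFBP2 base 435, chr2:108835541-108835600, plus strand: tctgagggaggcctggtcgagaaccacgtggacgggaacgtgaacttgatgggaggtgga
IGFBP2 base 893, chr2:108839213-108839272, plus strand: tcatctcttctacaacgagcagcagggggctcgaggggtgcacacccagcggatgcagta
At base 893 endometrium read 8.67, 10.56, 9.06 and 9.71, then 10.64, 9.04, 6.70 and 7.70, and no WBC array was well above background. Endometrium was at least 8.77-fold higher (adjusted p = 1.467e-05). At base 435 the tissues overlapped, with 6.58 to 8.65 in endometrium and 6.81 to 7.82 in WBC, and the difference was 0.47 (SE 0.30, adjusted p = 0.393). Over the 8 endometrium arrays the 2 probes correlated at r = 0.95, so the cows were ordered alike by both. With each tissue normalized on its own the difference at base 435 was 1.25 and was called.

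IGFBP4, which mostly restrains IGF action, was also measured by 2 probes that disagreed. At base 1982 endometrium read 12.28, 12.51, 12.65 and 12.14, then 12.19, 12.11, 11.68 and 12.55. WBC read 10.75, 8.73, 9.18 and 9.40, then 8.83, 9.56, 8.79 and 8.91, and the difference was 3.00 (SE 0.24, adjusted p = 4.116e-08), or 7.98-fold. At base 1134, the brighter probe, values were 14.47 to 15.23 in endometrium and 14.70 to 15.70 in WBC. The difference there was -0.18 (SE 0.16, adjusted p = 0.869), which became 0.19 with each tissue normalized on its own and -0.79, called, with the processed signal of the scanner software, each array set to its 75th percentile. Across the 8 endometrium arrays the IGFBP4 probes correlated at r = 0.11, whereas the median r between probes of a gene was 0.95 for IGF2, 0.99 for IGFBP3 and 0.996 for IGFBP6.

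IGFBP1, in ruminants an endometrial gene of the luteal phase and early pregnancy, was close to background. Its probe at base 1175 was well above background on 5 of 8 endometrium and 3 of 8 WBC arrays. In endometrium it read 8.42, 7.96, 6.03 and 6.29, then 7.20, 5.95, 8.36 and 5.39, a spread that ran across both healthy and SCE cows. The tissue difference was 0.52 (SE 0.45, adjusted p = 0.484), and -0.01 with the processed signal set to the 75th percentile. The array of cow 833 had no usable WBC spot for this probe and was left out of that value.

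Genes around the IGF system were read from a list of 56, of which 49 had a probe under their symbol. Between tissues 14 were called higher in endometrium, 24 lower and 11 not called, against 55.3% of all genes called, and the list's median was -0.49 against -0.15 over all genes. The balance of directions turned with each tissue normalized on its own, to 17 higher and 7 lower with a median of 0.12. The set of proteins that hold or cut IGF complexes had 7 measured members, 4 called higher and 1 lower. IGFBP7, a low-affinity relative of the binding proteins found in vessel walls and stroma, was higher by 9.16 (SE 0.23, adjusted p = 3.807e-14), or 570.5-fold. HTRA1, a secreted protease that cleaves IGFBPs, was higher by 7.74 (SE 0.20), or 213-fold. STC1, which blocks the protease PAPPA, was at least 27.5-fold higher, and ADAM12, a protease that cuts IGFBP3 and IGFBP5, at least 12.3-fold. PAPPA, the protease of IGFBP4, gave -0.42 (SE 0.15, adjusted p = 0.260) close to background, and the lysosomal protease CTSD gave -0.39 (SE 0.16, adjusted p = 0.335), neither of them called. Both turned sign with each tissue normalized on its own, to 0.11 and 0.06. They were called lower at -1.27 and -0.99 (adjusted p = 0.0163 and 0.0021) with the processed signal set to the 75th percentile, and also with no fold threshold (adjusted p = 0.0238 and 0.0401). IGFALS, which joins IGFBP3 and IGF in the blood complex, was lower by the main setting at -0.71 (SE 0.19, adjusted p = 0.0315), a call lost with the cow as a block (adjusted p = 0.0679), under 3 other settings and without any 1 of cows 841, 850, 883, 718, 836 and 846 (adjusted p from 0.0565 to 0.104).

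Among the growth hormone axis, GHR, the growth hormone receptor, was at least 25.4-fold higher in endometrium, and 2 of 5 members were called higher and 3 lower. With each tissue normalized on its own 2 were called higher and 1 lower, and the group's median turned from -0.83 to 0.07. PGR, the progesterone receptor, was higher by 3.64 (SE 0.34, adjusted p = 2.085e-07), or 12.4-fold, while ESR1, the estrogen receptor, gave 0.29 (SE 0.24, adjusted p = 0.633) and was not called by its brightest probe. ESR1 was called at 0.95 (adjusted p = 0.0133) with each tissue normalized on its own and at 0.89 (adjusted p = 1.806e-04) as the mean of its probes. The genes that carry the signal inside the cell were counted by route. Of 18 measured genes of the PI3K-AKT-mTOR route 4 were called higher and 10 lower, and of 7 RAS-MAPK genes 0 were called higher and 6 lower. By the brightest probe of all genes 23.8% were called higher and 31.5% lower. With each tissue normalized on its own the route counts were 5 higher and 2 lower for PI3K-AKT-mTOR, and 1 higher and 3 lower for RAS-MAPK. Of the calls over all probes 79.2% were then higher. PIK3CD, the leukocyte form of the kinase that IGF1R activates, was lower in endometrium by -5.87 (SE 0.17, adjusted p = 2.057e-13), or 58.4-fold, and by -5.20 under that setting. Of 7 insulin receptor and adaptor genes 3 were called higher and 3 lower, and with each tissue normalized on its own 3 higher and 1 lower, the median turning from -0.49 to 0.22. IRS1, the adaptor that binds IGF1R, was lower at -0.84 (SE 0.13, adjusted p = 6.97e-04), but 0.06 under that setting and -0.27 as the mean of its probes, neither called. IGF2BP3, an RNA-binding protein that takes IGF2 mRNA as a target, was lower at -1.68 (SE 0.32, adjusted p = 7.517e-04), but -0.84 and not called under that setting. IGF2BP1 and IGF2BP2 lay near background in both tissues.

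The second comparison asked whether SCE changes the IGF system in endometrium. None of the 37 probes was called by limma's TREAT test after adjustment, as in 0% of all 46598 probes, and 0 passed at an unadjusted p of 0.05, against 0.453% of all probes. Without the fold threshold 1 probe passed unadjusted, and the share of all probes under that setting was not counted. Differences, always SCE minus healthy, ran from -0.98 to 1.09, with 13 above 0 and 24 below, and all adjusted p were 1. In 1 of 37 probes SCE and healthy cows did not overlap, against 1.63% of all probes. It was the IGF2R probe at base 668, which was not well above background on any array, so it carries no level of IGF2R. Of the brightest probes, 9 of 10 were lower in SCE and 1 higher, with a median of -0.22 against -0.0046 over all probes. With 4 against 4 cows the smallest p of an exact permutation test is 0.029.

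**Figure D3:**
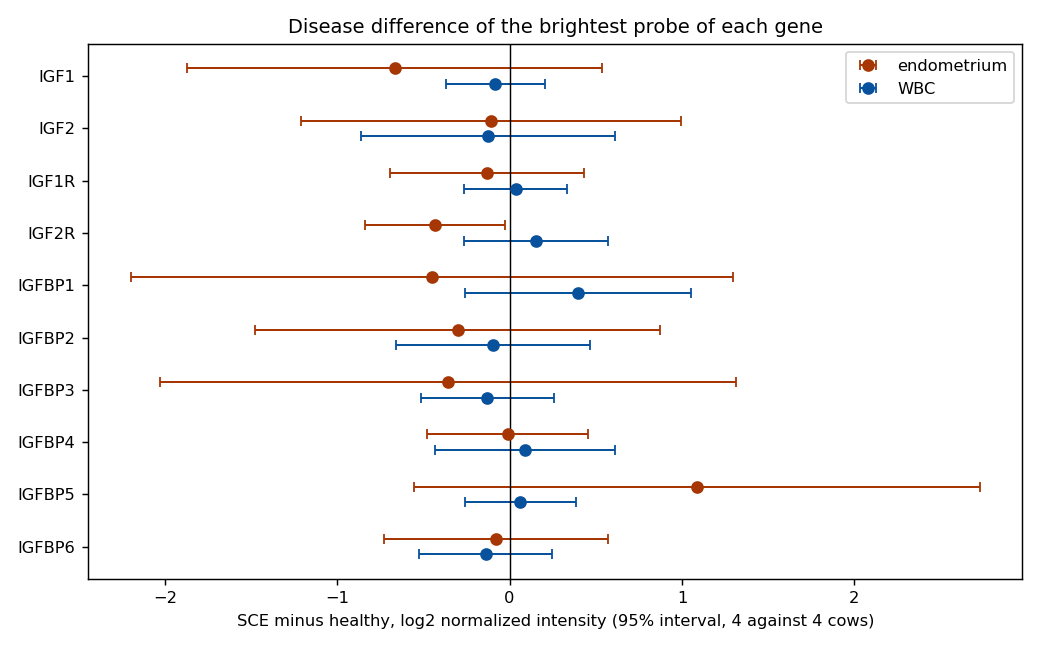
SCE minus healthy in log2 normalized intensity for the brightest probe of each gene, with 95% intervals from 4 against 4 cows, in endometrium (brown) and WBC (blue). The endometrium interval of IGF2R ends at -0.03 and all other intervals include 0. The widest is that of IGFBP1, from -2.20 to 1.29 in endometrium.

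IGF2R had the smallest p of the set in endometrium. Its probe at base 8892, whose values are given above, was 11.56 to 11.97 in healthy cows and 11.11 to 11.18 in 3 SCE cows, with cow 846 at 11.76 inside the healthy range. The difference was -0.43 (SE 0.18, 95% interval -0.84 to -0.03), with an unadjusted limma p of 0.183 and an exact permutation p of 0.114. Without cow 846 it was -0.59 with an unadjusted limma p of 0.026, and the adjusted p stayed at 1. The array row holding cows 841, 850, 718 and 833 gave -0.57 and the other row -0.30. At base 7143 the healthy cows read 8.76, 8.39, 8.66 and 8.37 and the SCE cows 8.29, 8.08, 8.09 and 8.48, a difference of -0.31 (95% interval -0.65 to 0.03, exact permutation p = 0.114). In WBC the sign was the other way, 0.15 at base 8892 and 0.33 at base 7143. The SCE difference in endometrium minus that in WBC was -0.59 at base 8892 (SE 0.27, unadjusted limma p = 0.043, exact permutation p = 0.0857) and -0.64 at base 7143 (SE 0.23, unadjusted limma p = 0.0126, exact permutation p = 0.029). Both had an adjusted p of 1. Limma p of this interaction came from eBayes, which tests against no change, and those of endometrium above from TREAT. By eBayes the endometrial difference at base 8892 had an unadjusted p of 0.0389. For the interaction, bases 8892 and 7143 were the 2 of 37 probes that passed unadjusted, against 1.79% of all probes, and 0 passed adjusted, against 0%. With the cow as a block the unadjusted p was 0.0564 at base 8892 and 0.00905 at base 7143. At base 8892 it was above 0.05 without any 1 of cows 841, 850, 877, 718, 833 and 836 (0.0502 to 0.142), whereas at base 7143 it stayed at 0.0349 or below without any cow.

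IGFBP5 was the only gene whose brightest probe was higher in SCE endometrium, and most of that came from cow 833. Its difference was 1.09 (SE 0.72, 95% interval -0.56 to 2.73, exact permutation p = 0.229), and 0.36 without cow 833. That cow read 12.38, the highest of all, against 8.55 to 10.34 in the other 7. That cow was also highest for IGF2 with each of the 12 IGF2 probes well above background on all endometrium arrays. The brightest IGF2 probe differed by -0.11 (SE 0.48, 95% interval -1.21 to 1.0, exact permutation p = 0.971) and by -0.56 without that cow. IGFBP3 was highest in cow 833 with 3 of its 5 probes. Its brightest probe differed by -0.36 (95% interval -2.03 to 1.32, exact permutation p = 0.714), and without cow 833 by -1.0 with an unadjusted limma p of 0.137. As given above, this array also held the highest endothelial and the lowest stromal marker means. PECAM1 was 14.37 there against at most 11.31 in the others, and COL1A2 was 14.82 against 16.66 to 18.11. The stromal markers PDGFRB, COL1A1, DCN and LUM were not lowest there. Its leukocyte marker mean was also the highest, 8.88 against 7.67 to 8.73, as was the red cell marker HBA, 16.53 against 14.39 to 15.16. The part of these cell types in the IGF values was not tested.

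**Figure D4:**
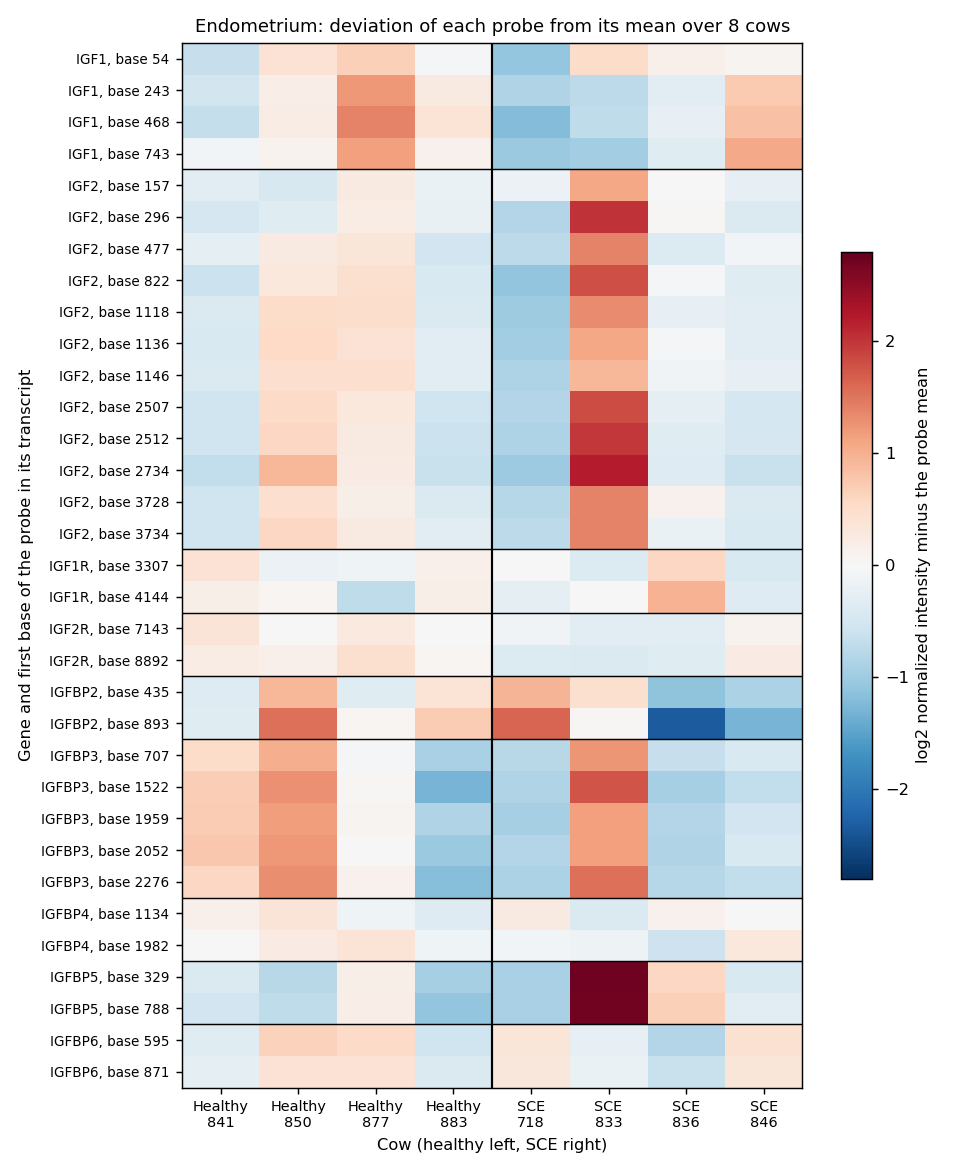
Deviation of each endometrium array from the mean of its probe over 8 cows, in log2 normalized intensity, for the 33 probes well above background on all 8 arrays, with healthy cows left and SCE cows right of the line. Rows of a gene mostly share their colours. The column of cow 833 is red for IGF2, IGFBP3 and IGFBP5, and IGFBP2 ranges from red in cows 850 and 718 to blue in cow 836.

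Variation between cows of the same status was larger than the difference by disease for most members. IGFBP2 at base 893 varied 15.4-fold over the 8 endometrium arrays, with cow 718 highest and cow 836 lowest, both with SCE. Its difference was -0.98 (SE 0.81, 95% interval -2.84 to 0.87, exact permutation p = 0.343), and -1.69 without cow 718, with an unadjusted limma p of 0.0361 and an adjusted p of 1. IGFBP5 varied 14.2-fold. The IGF1 difference was -0.67 (SE 0.53, 95% interval -1.87 to 0.54, exact permutation p = 0.314), with cow 877 highest among healthy and cow 846 highest among SCE cows. All 4 IGF1 probes were lower in SCE cows, by -0.19 to -0.67, and leaving out each cow in turn kept the brightest between -1.05 and -0.31. Some intervals were narrower. The difference was -0.01 (95% interval -0.48 to 0.46) for IGFBP4 at base 1134, -0.13 (-0.69 to 0.43) for IGF1R and -0.08 (-0.73 to 0.57) for IGFBP6. A change of 2-fold in either direction lay outside each of these 3 intervals, and outside that of IGF2R at base 8892, given above, which was narrower still. For IGFBP1 (-0.45, -2.20 to 1.29) and IGFBP2 at base 435 (-0.30, -1.47 to 0.87) it did not.

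In WBC none of the 37 probes was called, as in 0% of all 46609 probes, and 0 passed at an unadjusted p of 0.05, against 0.122%. Differences ran from -0.59 to 0.40, and of the brightest probes 5 were above 0 and 5 below. The smallest p belonged to the IGF2 probes at bases 3728 and 3734. At base 3728 SCE cows were lower by -0.55 (SE 0.23, 95% interval -1.07 to -0.04, exact permutation p = 0.114) and at base 3734 by -0.59 (95% interval -1.21 to 0.03, exact permutation p = 0.114). Without cow 718 these were -0.77 and -0.84 with unadjusted limma p of 0.0108 and 0.0164, and adjusted p of 1. At base 3728 the SCE cows other than cow 718 read 7.5 to 7.70 and cow 718, at 8.44, lay among the healthy cows. The IGF2 probe at base 1118, bright in WBC, gave -0.12 (95% interval -0.86 to 0.61). The groups did not overlap for 1 probe, against 1.31% of all probes. This was IGF1 at base 54, with 7.64, 7.21, 7.05 and 7.06 in healthy and 7.02, 6.74, 6.97 and 6.90 in SCE cows, a difference of -0.33 (95% interval -0.69 to 0.03, exact permutation p = 0.029), while the brightest IGF1 probe gave -0.08 (-0.37 to 0.21). For the brightest probes of IGF1R (0.04, -0.26 to 0.34) and IGFBP3 (-0.13, -0.52 to 0.26) a change of 2-fold lay outside the interval.

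The genes around the IGF system were compared in the same way. Of the 49 measured, 0 were called in endometrium and 0 in WBC, as in 0% of all genes, and 0 passed unadjusted in either tissue, against 0.494% and 0.123% of all genes. Medians were -0.02 in endometrium and -0.01 in WBC, against 0.01 and -0.01 over all genes. The largest endometrial differences were those of IGF2BP3 at -0.91, PGR at -0.89 and PIK3R1, a regulatory subunit of PI3-kinase, at -0.58, with exact permutation p of 0.200, 0.314 and 0.0857. PGR read 9.67 to 11.80 in healthy cows and 8.18 to 10.65 in SCE cows, lowest in cow 833. In WBC the largest were IGF2BP3 at -0.88, ESR1 at -0.41 and RPTOR, a component of the mTOR complex, at -0.40. IGF2BP3 read 8.35, 9.25, 9.77 and 9.99 in healthy and 8.12, 8.20, 8.66 and 8.86 in SCE cows, which overlapped (unadjusted limma p = 0.052, exact permutation p = 0.0857).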

How the data were processed

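RNA of WBC and endometrium from 8 cows was hybridized to 1-colour bovine Agilent arrays, 16 in all. Per the file headers, spot intensities were extracted with Agilent Feature Extraction 10.10.1.1, and probe coordinates are on build HGSC Btau 3.1. The authors also deposited intensities normalized between arrays, with a median of 231.5 on each array.

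The main values were log2 of each spot's median intensity without background subtraction, after leaving out control spots and outlier spots, quantile-normalized over the 16 arrays. Tests used limma 3.58.1 in R 4.3.3 (lmFit, TREAT with a fold threshold of 1.2, the interaction with eBayes) with Benjamini-Hochberg adjustment over all probes at 0.05. Each tissue's SCE comparison was fitted on its 8 arrays, and the tissue comparison and the interaction on all 16. Exact tests permuted cows between groups, or flipped the sign of each cow's tissue difference (smallest p 0.0078). Each array is 1 tissue of 1 cow, so p-values of the SCE comparisons measure the spread between animals. The main fit of all 16 arrays took both arrays of a cow as independent. With the cow as a block, the smallest TREAT adjusted p between tissues for the 37 probes was 3.356e-09, against 4.505e-14. The same 26 probes were called higher and 2 lower. A probe counted as well above background by the mark in the scanner files. Where a probe lacked that mark on all WBC arrays, its fold was a lower bound against the dimmest spot that carried the mark. Where the probe's own WBC reading was higher, as for IGFBP6 at base 595, the fold is the estimate itself. These folds come from means and leave out the spread between cows. All probes of the 10 genes were described, with the brightest on average standing for its gene. From the list of surrounding genes the text names the accessory proteins, IRS1, GHR, the IGF2BP genes, ESR1, PGR and the 3 genes with the largest absolute difference in each comparison, and it names the 2 genes of highest correlation with each member over the endometrium arrays. PAPPA2, STC2, INSR, IRS2, IRS4, PDPK1 and TSC2 had no probe under their symbol and were not analysed here. Members and lists were chosen with earlier results of these data known.

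WBC and endometrium were paired by cow. The correlation of a cow's deviations from its group means between tissues was -0.24 to 0.11 over 45939 probes. Alternatives were normexp background correction (offset 50), the processed signal set to the 75th percentile, the authors' normalized values, quantile normalization within each tissue, no fold threshold, only probes well above background, the mean of a gene's probes, 1 fit of all arrays, the slide row or the cow as a block, and leaving out each cow. On simulated data with 200 probes changed by 2 (log2), TREAT recovered 80.5% in endometrium, 85.5% in WBC and 91.5% between tissues, and eBayes 76.0% of the interactions, each on 45939 probes. The SCE differences of the 37 probes were smaller than that change, at most 1.09, and recovery of smaller changes was not tested. Whether the simulated spread matched that of each tissue was not tested either. Other tools were Python 3.11.15, numpy 2.4.6, pandas 2.3.3, scipy 1.17.1, data.table (1.17.8) and matplotlib 3.10.9. A sequence result for IGFBP4 is not reported here.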

Additional observations from a re-analysis of the deposited data

Results flagged for a closer look

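Within groups of 4 cows, a highest or lowest value was marked where its gap to the next cow took up more of the group's range than Dixon's 95% critical value. Of 145 groups of values tested 12 were marked, and chance marks about 1 in 20. In endometrium, healthy cow 877 stood apart at 10.87 for the IGF1 probe at base 743 and at 6.81 for the IGF1R probe at base 4144. SCE cow 846 stood apart at 11.76 for IGF2R at base 8892, above the other SCE cows. SCE cow 833 stood apart for IGFBP3, at 15.63 at base 1522 and 14.3 at base 2276. In WBC, healthy cow 877 stood apart at 6.87 for IGF1 at base 468, and healthy cow 841 at 9.6 for IGF2 at base 2734. SCE cow 833 was low at 10.43 for IGF2 at base 1136 and high at 9.56 for IGFBP4 at base 1982. The other 3 belonged to the IGF2 probe at base 618, which was not well above background on any array, with 5.22 in healthy endometrium (cow 883), 5.67 in SCE endometrium (cow 833) and 6.05 in healthy WBC (cow 841).

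The SCE difference of the IGF2R probe at base 7143 differed between tissues by -0.64 (endometrium minus WBC, unadjusted limma p = 0.0126, exact permutation p = 0.029, the smallest possible). Its adjusted p over all probes was 1.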

How the results depend on the processing

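All comparisons rest on 4 cows a group, probes near background bound a level only from above, and the tissues lay on different slides. By their brightest probe 6 of 10 genes were called between tissues, also with the cow as a replicate block and without any 1 cow. The count was 7 with the 75th percentile, 8 with each tissue normalized on its own and 7 by the mean of a gene's probes. Of all genes 55.3% were called by their brightest probe in the main setting, and this share was not counted under the others. Over all probes 10846 were called higher and 17162 lower with the 75th percentile, and 19223 and 5054 with each tissue normalized on its own. By the mean of a gene's probes 5950 of 26738 genes were called higher and 8119 lower. Of the surrounding genes 38 were called between tissues, 24 with each tissue normalized on its own and 37 to 39 without any 1 cow. No SCE comparison gave an adjusted call under any setting. At an unadjusted p the count of genes by their brightest probe in endometrium was 0, but 1 with no fold threshold and 0 to 1 leaving out a cow. For the interaction it was 1, and 0 with the 75th percentile, with each tissue normalized on its own and with the cow as a block, and 0 to 1 leaving out a cow. For surrounding genes it was 0 in both tissues, 0 to 1 leaving out a cow in either, and in WBC 1 with no fold threshold and 1 with the slide row as a block. Shares of all genes at an unadjusted p were not counted under these other settings. The block by cow changed no other call, apart from IGFALS between tissues (adjusted p = 0.0679).

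Some signs turned, and the cause was not tested. For SCE minus healthy in endometrium, IGF2 became 0.137 with the 75th percentile and 0.093 as the mean of its probes. IGF1R became 0.020 as the mean of its probes, IGFBP6 0.136 with the 75th percentile, and IGFBP4 0.002 with normexp and 0.052 with the 75th percentile. In WBC, IGFBP2 became 0.047 with normexp, 0.030 with the 75th percentile and 0 as the mean of its probes, IGFBP4 -0.201 and IGFBP5 -0.025 as such means. Between tissues, IGFBP1 became -0.013 with the 75th percentile, IGFBP4 0.193 with each tissue normalized on its own and 1.409, called, as the mean of its probes. Normalizing each tissue on its own also gave 0.113 for PAPPA, 0.063 for CTSD and 0.062 for IRS1. IGF2BP1 became -0.158 with normexp, and IGF2BP2 -0.006 with normexp and -0.014 with the 75th percentile. Leaving out a cow moved the endometrial difference of IGF2 from -0.564 to 0.207, IGFBP2 from -0.668 to 0.024, IGFBP3 from -1.002 to 0.011, IGFBP4 from -0.135 to 0.123 and IGFBP6 from -0.224 to 0.119. In WBC it moved IGF2 from -0.275 to 0.164, IGF1R from -0.021 to 0.107, IGFBP2 from -0.283 to 0.084, IGFBP4 from -0.11 to 0.215, IGFBP5 from -0.035 to 0.118 and IGFBP6 from -0.216 to 0.015.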

Other observations

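For the brightest probe of each member, the probes of other genes whose values followed it most closely over the 8 endometrium arrays were sought among those well above background on all of them. With 8 arrays of 1 slide and so many probes searched, high correlations are to be met in any case, and they are given as a description. IGF1 was closest to SETD5 (r = 0.98) and CERS4 (r = 0.97), and IGF2 to LRRFIP2 (r = 0.99) and RNF4 (r = 0.98). IGF1R was closest to MIGA2 and OS9, both at r = 0.96, and IGF2R to DCTD and KNOP1, both at r = 0.98. For the binding proteins, IGFBP2 was closest to BOLA-NC1 and SGK1 (both r = 0.95), IGFBP3 to SELP and RBM39 (both r = 0.98), IGFBP4 to GNAI3 (r = 0.97) and BRPF1 (r = 0.96), and IGFBP6 to E2F4 (r = 0.98) and AACS (r = 0.97). IGFBP5 was closest to AHSP and IFNT3 (both r = 0.99), with cow 833 far above the other 7 cows for IGFBP5.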
